A study of Mus musculus with 8 samples.

Results

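The GIMAP genes (GTPases of immunity-associated proteins) were described in naive CD8 T cells, which have not yet met antigen and can give rise to cytotoxic T cells, from Brca1 heterozygous and wild type mice. The members were taken by symbol, Gimap1, Gimap3, Gimap4, Gimap5, Gimap6, Gimap7, Gimap8 and Gimap9. All 8 were found among the 22609 genes of the table, and all 8 passed the filter that left 12048 genes for testing. RNA sequencing covered 4 libraries from Brca1 heterozygous mice (Het 31, 53, 56 and 139) and 4 from Brca1 wild type mice (WT 45, 54, 57 and 65), numbered as in the sample titles. All mice were C57BL/6 and 3 months old, and the cells were isolated directly from the spleen without a treatment named in the labels. The labels do not give how the Brca1 allele was made, the sex, the litter, the day or whether every library stands for its own mouse. The p-values below therefore reflect how much these libraries differ among themselves, which may be technical in part.

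GIMAP proteins are small GTP-binding proteins found mainly in lymphocytes, where several sit on lysosomal and other internal membranes. They are known for the survival of resting T and B cells. Loss of Gimap5 in mice and rats leaves few peripheral T cells, and loss of Gimap1 in mice depletes mature T and B cells. The genes lie side by side on mouse chromosome 6, in the order Gimap8, Gimap9, Gimap4, Gimap6, Gimap7, Gimap1, Gimap5 and Gimap3 in the RefSeq annotation of GRCm38.p6, which is a later build than the mm9 named in the submitters' processing notes.

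The loop that grips the phosphates of GTP is common to GTP-binding proteins in general. It is shown for each member because all of them carry it and because it shows how close Gimap3 and Gimap5 are. The 24 bases that encode the loop are in capitals, with 15 coding bases on each side, read 5′ to 3′ from the GENCODE transcripts of GRCm38:
Gimap1: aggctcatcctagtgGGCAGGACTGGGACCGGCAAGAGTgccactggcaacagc
Gimap3: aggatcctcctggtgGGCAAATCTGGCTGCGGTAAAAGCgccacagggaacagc
Gimap4: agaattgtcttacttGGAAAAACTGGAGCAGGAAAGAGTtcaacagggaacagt
Gimap5: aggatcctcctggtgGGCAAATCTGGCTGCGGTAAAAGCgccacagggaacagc
Gimap6: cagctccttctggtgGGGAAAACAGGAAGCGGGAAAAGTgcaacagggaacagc
Gimap7: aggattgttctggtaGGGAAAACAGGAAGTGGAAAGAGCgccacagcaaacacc
Gimap8, first of 3 loops: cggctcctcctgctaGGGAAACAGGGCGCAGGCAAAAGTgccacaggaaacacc
Gimap9: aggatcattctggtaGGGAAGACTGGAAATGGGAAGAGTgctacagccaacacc

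Gimap3 and Gimap5 had the same base at all 54 positions of this stretch, and their coding sequences were 90.3% identical over 898 aligned bases. The other 20 pairs without Gimap8 were 55.9% to 66.7% identical. Gimap8 differed in build, with 3 such loops in 688 codons, against 1 loop in 291 to 328 codons in each of the other members. Close copies can share reads. Of all 50-base words of its transcript, Gimap5 shared 9.98% with Gimap3 and Gimap3 shared 9.065% with Gimap5. With words of 100 bases the shares were 2.21% and 2.004%, so most of either transcript is distinct, but the split of reads between this pair is uncertain in part. Gimap4, Gimap6, Gimap8 and Gimap9 shared no 50-base word with any other annotated gene. Gimap1 shares 1107 exonic bases with an annotated antisense transcript, Gimap1os, and the strand setting of the counting is not given in the sources used here, so reads of the antisense transcript cannot be told apart from its own. A joint gene model, Gm28053, uses exons of Gimap7, Gimap1 and Gimap5 and was not a row of the table.

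The authors deposited normalized read counts with the same distribution in every library, so a value reflects the rank of a gene in its library, and the total near 27489670 says nothing of depth. Genes above 0 numbered 14270 ± 391 in Het and 15486 ± 96.1 in WT libraries (SD, n = 4 each). They ran from 13863 to 14656 in Het and from 15358 to 15569 in WT libraries, without overlap. The lowest value above 0 was 0.9 to 1.9 in Het and 0.2 to 0.3 in WT libraries. The part of this difference in the calls over all genes was not tested. The number of reads behind a value is not known, and the lowest member value in any library was 2158.9. Brca1 itself was at 153 ± 22.7 in Het and 183 ± 29.3 in WT libraries (SD, n = 4 each) and did not pass the test (log2 difference -0.25, limma adjusted p = 0.742), so it gave no check of the labels. Cd8a, a chain of the CD8 coreceptor that defines the labelled cell type, was at 45657.9 to 50265.2 in Het and 40591 to 46876.7 in WT libraries, among the highest values of the table. Markers of other cells were present at lower levels. The mean log2 level of the B cell list was 8.45 to 10.65 in Het and 8.06 to 9.52 in WT libraries, that of the NK cell list 6.99 to 8.84 in Het and 6.46 to 7.83 in WT libraries, and that of the CD8 T cell list 14.09 to 14.43 in Het and 14.07 to 14.33 in WT libraries.

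GIMAP transcripts were among the most abundant of these cells. Gimap3 ranked between 42 and 80 of the 22609 genes, Gimap6 between 67 and 114 and Gimap4 between 71 and 131. Gimap8 followed at ranks 253 to 367, Gimap1 at 753 to 1579 and Gimap9 at 1140 to 1433. Gimap5 stood at 1838 to 2645 and Gimap7 at 1719 to 3207. To compare genes, levels were divided by the length of their exons in GENCODE (normalized read count per kb of all exons).

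Per kb, Gimap4 and Gimap3 were highest and did not differ beyond their spread, at 14087 ± 1629 and 13999 ± 1243 in Het libraries and 12749 ± 1516 and 12406 ± 1237 in WT libraries (SD, n = 4 each). Gimap6 came next, at 7408 ± 967 in Het and 6746 ± 95.8 in WT libraries. Gimap8 (3724 ± 139 in Het, 3288 ± 198 in WT) and Gimap9 (3149 ± 106 in Het, 3135 ± 235 in WT) lay within their spread of each other in WT but not in Het libraries. Gimap1 was at 1882 ± 452 in Het and 1668 ± 179 in WT libraries. Gimap7, at 1350 ± 293 in Het and 1019 ± 96.2 in WT libraries, overlapped with Gimap1 in Het libraries but not in WT libraries. Gimap5 was the lowest per kb, at 828 ± 66.5 in Het and 724 ± 62.8 in WT libraries. The order depends on the length used. With the length of 1 coding transcript in place of all exons, the Het mean per kb of Gimap6 (16247) exceeded that of Gimap4 (14344) and that of Gimap1 (3874) exceeded that of Gimap9 (3736). Gimap3 (16819) was then on top in place of Gimap4, and Gimap5 was lowest with either length.

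**Figure D1:**
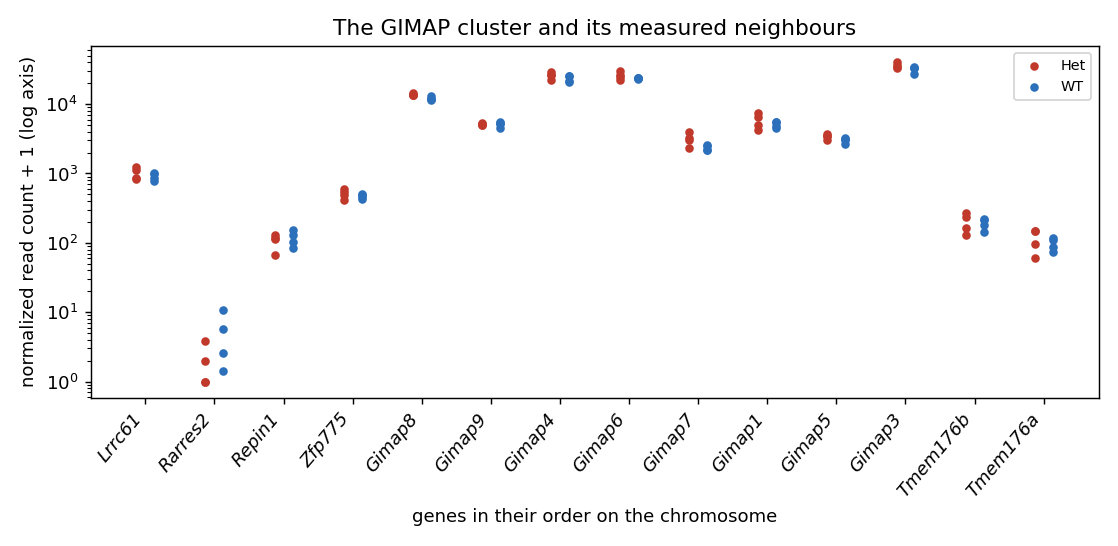
Normalized read count plus 1 on a log axis for the GIMAP genes and the neighbours on either side, in their order along the chromosome, with 1 point per library (Het red, left of WT blue). Every GIMAP gene is at 2158.9 or more in every library, while the nearest neighbours Zfp775 and Tmem176b reach at most 595.9 and 266.7.

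The nearest genes on either side of the cluster were lower than every member. Zfp775, a zinc finger gene next to Gimap8, was at 509 ± 79.2 in Het and 471 ± 33.4 in WT libraries, and Tmem176b, next to Gimap3, at 199.8 ± 63.4 in Het and 188 ± 36.8 in WT libraries (SD, n = 4 each). Rarres2, the gene of a chemoattractant, was at 2.9 or less in Het and 9.9 or less in WT libraries. Lrrc61 and Krba1, also near the locus, were higher. Lrrc61 was at 1016 ± 187 in Het and 909 ± 112 in WT libraries, and Krba1 at 1474 ± 212 in Het and 1485 ± 90.0 in WT libraries. None of these values is divided by gene length. Of a list of 10 genes around the locus, 9 were tested and 0 were called, with 5 differences above and 4 below 0. Their smallest p was that of Atp6v0e2, a proton pump subunit, at 4.8 or less in Het and 17.7 to 28.3 in WT libraries (limma adjusted p = 0.0885), and 2 of the Het libraries are listed at 0. It was called without the filter on low values (limma adjusted p = 0.0476) and without the variance trend (limma adjusted p = 0.0476).

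No GIMAP gene passed the test between genotypes. Of the 8 members 0 were called by limma at an adjusted p under 0.05, a threshold that 0.515% of the 12048 tested genes passed, all lower in Het at this setting. Without adjustment, 1 member (Gimap7, higher in Het) had a p under 0.05, against 8.19% of all tested genes in either direction, 3.79% higher and 4.4% lower in Het. The log2 difference (Het minus WT) was above 0 in 8 of 8 members, with a median of 0.16, against 52% of all tested genes and a median of 0.01. Differences at least as large as the members' median were found in 24.3% of the tested genes. The members share libraries and a locus and vary together, so they are not 8 separate observations. In bulk samples, fewer cells of a type and less RNA per cell cannot be told apart.

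**Figure D2:**
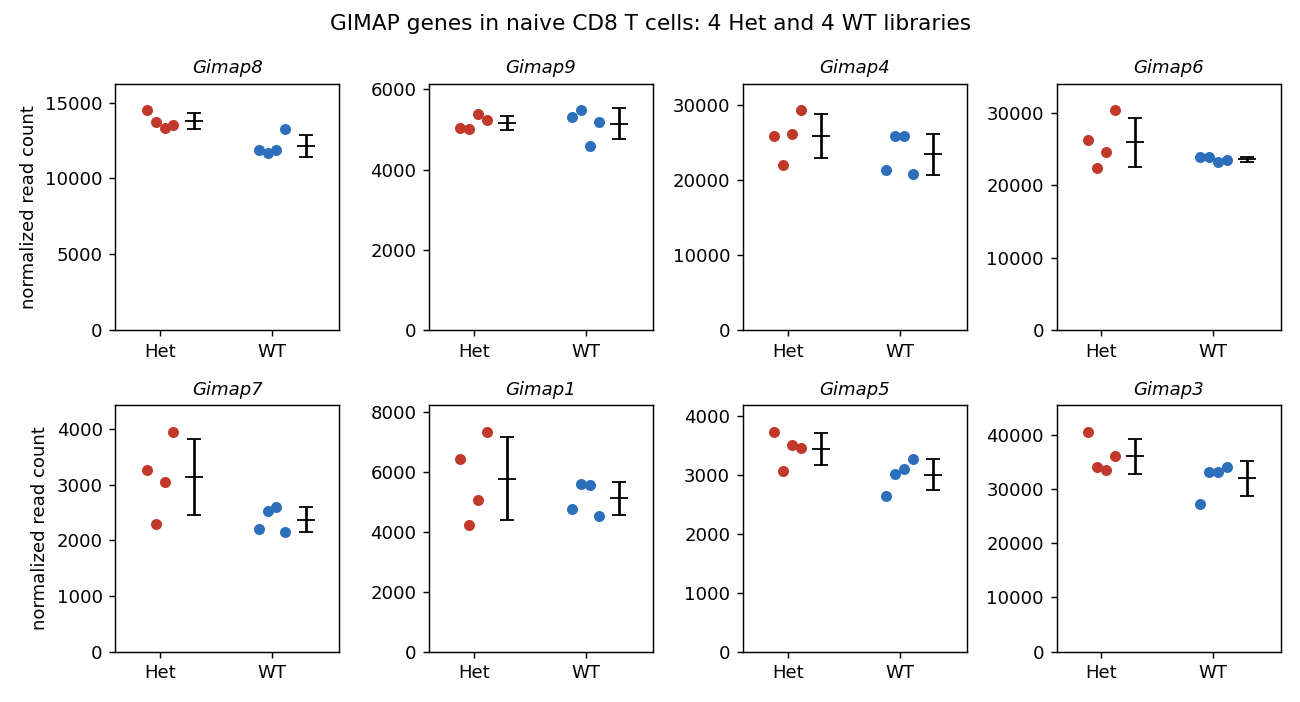
Normalized read count of each GIMAP gene (linear axes from 0) in 4 Het and 4 WT libraries, with points for libraries and the mean ± SD beside them. Only in Gimap8 do all Het libraries (13351.2 or more) lie above all WT libraries (13250.7 or less).

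Gimap7, which in human forms pairs with other GIMAP proteins that drive the hydrolysis of GTP, had the largest difference of the family. It was at 3259.6, 2298.6, 3047.6 and 3952.1 in Het 31, 53, 56 and 139, against 2197.6, 2519.5, 2601.2 and 2158.9 in WT 45, 54, 57 and 65. Het 31, 56 and 139 stood above every WT library and Het 53 fell within the WT range, so the groups overlapped. The means were 3139 ± 681 in Het and 2369 ± 224 in WT (SD, n = 4 each). On the log2 scale Het exceeded WT by 0.38 (SE 0.15, 95% interval 0.05 to 0.71, exact permutation p = 0.0857, limma adjusted p = 0.529). A difference at least that large was found in 10.9% of the tested genes.

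Gimap8, the member with 3 GTP-binding loops, was the only one whose groups did not overlap, a separation with Het higher that 2.13% of tested genes had. It was at 14518.4, 13699.2, 13351.2 and 13547.8 in Het 31, 53, 56 and 139, against 11894.6, 11654.5, 11854.7 and 13250.7 in WT 45, 54, 57 and 65. WT 65 came close to the lowest Het library, Het 56, and the other WT libraries lay well below. The means were 13779 ± 513 in Het and 12164 ± 732 in WT (SD, n = 4 each). On the log2 scale Het exceeded WT by 0.18 (SE 0.08, 95% interval -0.0014 to 0.36, limma adjusted p = 0.609, with an exact permutation p of 0.0286, the smallest that 70 assignments can give).

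Gimap5 and its close copy Gimap3 had like differences. Gimap5 was at 3728.9, 3064.1, 3502.3 and 3447.5 in Het 31, 53, 56 and 139, against 2643.4, 3007.9, 3097.7 and 3258.8 in WT 45, 54, 57 and 65. Het 31, 56 and 139 were above every WT library and Het 53 was within the WT range, with means of 3436 ± 276 in Het and 3002 ± 261 in WT (SD, n = 4 each). The log2 difference was 0.20 (SE 0.10, 95% interval -0.02 to 0.41, exact permutation p = 0.0857, limma adjusted p = 0.646). Gimap3, which in mice also bears on the inheritance of mitochondrial DNA in blood cells, was at 40591, 34139.4, 33497.4 and 36077.6 in Het 31, 53, 56 and 139, against 27228.5, 33254.2, 33254.2 and 34139.4 in WT 45, 54, 57 and 65. WT 45 stood far below the rest and Het 31 above them, while the other libraries lay close together. Equal values in different libraries are equal ranks. The means were 36076 ± 3203 in Het and 31969 ± 3188 in WT (SD, n = 4 each), and the log2 difference was 0.18 (SE 0.11, 95% interval -0.08 to 0.43, exact permutation p = 0.0857, limma adjusted p = 0.690).

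Gimap1, needed in mice for mature lymphocytes, was at 6455.8, 4247.7, 5075.5 and 7354.4 in Het 31, 53, 56 and 139, against 4768.7, 5608.9, 5581 and 4545.6 in WT 45, 54, 57 and 65. Both the highest and the lowest value were in Het libraries, and the means were 5783 ± 1388 in Het and 5126 ± 549 in WT (SD, n = 4 each). The log2 difference was 0.15 (SE 0.16, 95% interval -0.21 to 0.50, exact permutation p = 0.486, limma adjusted p = 0.800). Gimap4, which in mice speeds the death of T cells after an apoptotic stimulus, was at 25938.8, 22032.6, 26198.4 and 29338.4 in Het 31, 53, 56 and 139, against 21274.8, 25823.4, 25823.4 and 20754.5 in WT 45, 54, 57 and 65. The groups overlapped, at 25877 ± 2993 in Het and 23419 ± 2784 in WT (SD, n = 4 each), with a log2 difference of 0.14 (SE 0.12, 95% interval -0.13 to 0.41, exact permutation p = 0.171, limma adjusted p = 0.755).

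Gimap6, which binds an autophagy protein of the GABARAP family, was at 26198.4, 22362.9, 24643.6 and 30383.9 in Het 31, 53, 56 and 139, against 23857.7, 23857.7, 23174.7 and 23445.8 in WT 45, 54, 57 and 65. The WT libraries were nearly equal (SD 0.02 on the log2 scale) and the Het libraries spread to both sides of them (SD 0.19), with means of 25897 ± 3381 in Het and 23584 ± 335 in WT (SD, n = 4 each). The log2 difference was 0.13 (SE 0.11, 95% interval -0.11 to 0.36, exact permutation p = 0.286, limma adjusted p = 0.757). Gimap9 was at 5038.6, 5015.5, 5380 and 5246.2 in Het 31, 53, 56 and 139, against 5311.9, 5484.8, 4598.4 and 5198.2 in WT 45, 54, 57 and 65. The genotypes were nearly level, at 5170 ± 174 in Het and 5148 ± 385 in WT (SD, n = 4 each), with a log2 difference of 0.01 (SE 0.08, 95% interval -0.17 to 0.19, exact permutation p = 0.914, limma adjusted p = 0.978), whose sign turned with the scaling of the libraries. The interval spans 0.887 to 1.14-fold, and for Gimap8 it spans 0.999 to 1.29-fold. For the other members its upper end lies between 1.29-fold (Gimap6) and 1.64-fold (Gimap7), so a doubling in Het lies outside the interval of each member.

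**Figure D3:**
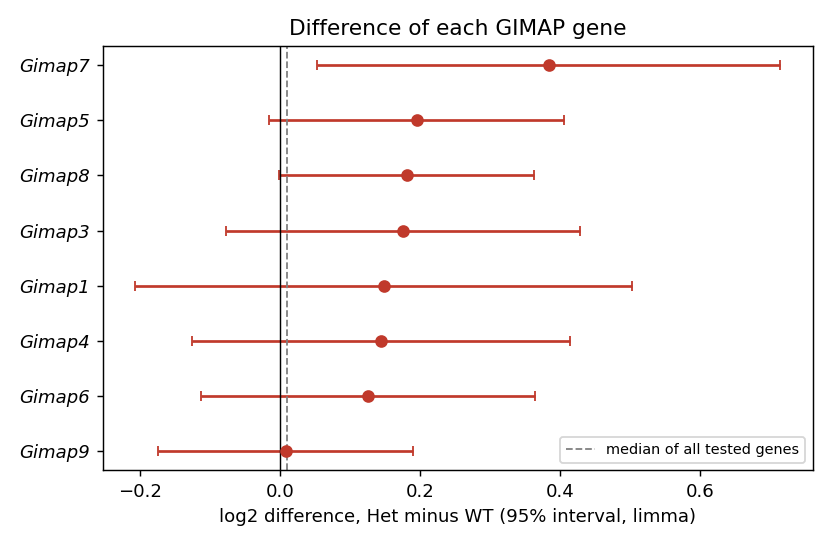
Log2 difference, Het minus WT, of each GIMAP gene with its 95% interval from limma, ordered by size. The dashed line is the median of all tested genes (0.01). Points run from 0.01 (Gimap9) to 0.38 (Gimap7), and the interval of Gimap7 alone lies wholly above 0.

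The members varied between libraries in a pattern that crossed the genotypes. A pair of sets was formed after the values had been seen, so neither carries a test. In Gimap1, Gimap4, Gimap6 and Gimap7 the highest of the 8 libraries was Het 139, and Pearson's r of log2 values over the 8 libraries was 0.72 to 0.90 in their 6 pairs. In Gimap3, Gimap5 and Gimap8 the highest library was Het 31, and r was 0.73 to 0.90 in their 3 pairs, of which Gimap3 and Gimap5 may share reads. Between the sets r was 0.13 to 0.72 over 12 pairs, and in the 7 pairs with Gimap9 it was -0.22 to 0.23. After the mean of each genotype was taken out, r was 0.65 to 0.96 within the first set, 0.53 to 0.84 within the second and -0.47 to 0.49 between them. These r values describe 8 libraries that were normalized to 1 distribution and whose depth in reads is unknown.

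**Figure D4:**
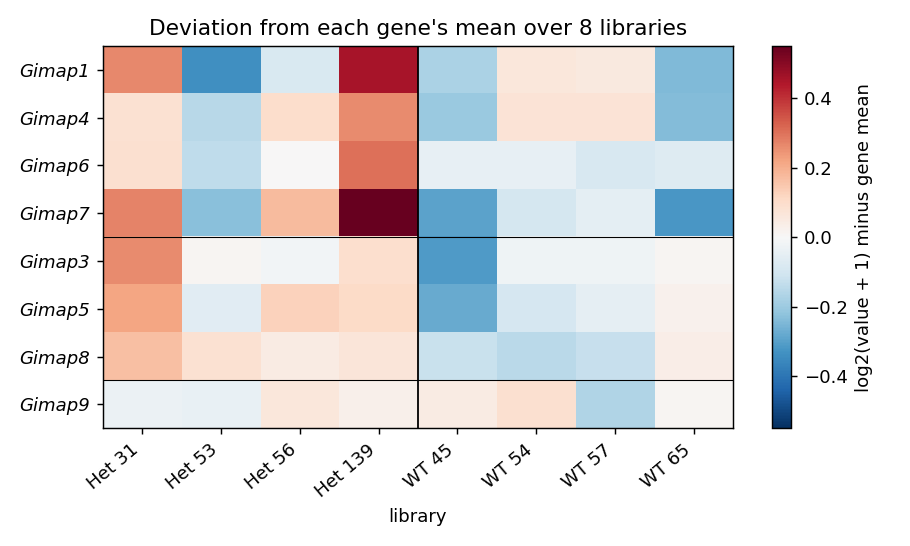
Log2(value + 1) of each GIMAP gene minus its mean over the 8 libraries (color), with Het libraries left of the vertical line and WT libraries right of it. Gimap1, 4, 6 and 7 are highest in Het 139, Gimap3, 5 and 8 in Het 31, and Gimap9 varies little.

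The mean log2 level of the first set was 13.34 ± 0.25 in Het and 13.14 ± 0.11 in WT libraries, and that of the second set 13.54 ± 0.09 in Het and 13.36 ± 0.11 in WT libraries (SD, n = 4 each). Without Het 31 and Het 139 together, an alternative added after the values had been seen, the median of the members was 0.07, with 6 of 8 above 0. Het 31 and Het 139 had the highest mean over all 8 members (13.37 and 13.44). Leaving both out was therefore bound to lower the mean difference of the family, and it carries no test. Gimap1 and Gimap6 were then lower in Het (-0.14 and -0.01), while the other members stayed above 0. The lower end of the family held libraries of both genotypes: the mean over all 8 members was lowest in WT 45 (13.03) and Het 53 (13.10).

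The mean level of the family moved with other gene lists across libraries, though not every member followed it. The mean log2 level of the 8 members was 13.37, 13.10, 13.26 and 13.44 in Het 31, 53, 56 and 139, and 13.03, 13.18, 13.16 and 13.11 in WT 45, 54, 57 and 65. The CD8 T cell marker list stood at 14.35, 14.09, 14.22 and 14.43 in the Het libraries and at 14.09, 14.33, 14.24 and 14.07 in the WT libraries. Both levels were highest in Het 139 and Het 31 (Pearson's r = 0.89, Spearman's rho = 0.83, n = 8), also without Het 139 and WT 65, the farthest from the median of the marker level (r = 0.81, n = 6). By member, r with the marker level was 0.79 to 0.96 for Gimap1, Gimap4, Gimap6 and Gimap7. It was 0.58 and 0.54 for Gimap3 and Gimap5, and 0.15 and 0.08 for Gimap8 and Gimap9. The 12 genes of the CD8 T cell marker list had a median log2 difference of 0.08, with 10 above 0 and 0 called.

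Heat shock chaperone genes, which help proteins fold under stress, ran the other way, with 10 of 12 differences below 0, a median of -0.45 and 0 called. Their mean log2 level was 10.03, 10.82, 11.13 and 9.95 in Het 31, 53, 56 and 139, and 11.64, 10.42, 10.59 and 11.26 in WT 45, 54, 57 and 65. The chaperones were lowest in Het 139 and Het 31, where the family was highest, and highest in WT 45, where it was lowest (r = -0.82, rho = -0.81, n = 8, and r = -0.61 without WT 45 and Het 139). By member, r with the chaperone level was -0.83 to -0.61 for Gimap1, Gimap3, Gimap4, Gimap5, Gimap6 and Gimap7, -0.35 for Gimap8 and 0.19 for Gimap9. With the chaperone level as a covariate the median of the members was 0.08, with 7 of 8 above 0 and Gimap1 at -0.04. The difference of Gimap8 was 0.18 with and without that covariate. That of Gimap9 was 0.03 with it and 0.01 without it, while the other members were lower with it. The B cell marker level moved with the family mean less closely (r = 0.36, n = 8) and in the other direction without Het 31 and WT 45 (r = -0.50, n = 6). Single members differed, with r of 0.83 for Gimap3, 0.57 for Gimap8 and 0.55 for Gimap5 with the B cell level. For Gimap1, Gimap4, Gimap6 and Gimap7 that r was 0.07 to 0.22, and for Gimap9 it was -0.18. The number of genes above 0, lower in Het, also ran against the family level (r = -0.72, rho = -0.55, n = 8, and r = -0.46 without Het 139 and Het 56). After the mean of each genotype was taken out, its r with the family level was -0.40. That of the chaperone level was then -0.78, of the CD8 T cell marker level 0.92 and of the B cell marker level 0.21. Among markers of other cells, 12 of 12 B cell and 8 of 9 NK cell genes had a difference above 0. So did 11 of 13 myeloid and 6 of 7 CD4 and regulatory T cell genes. None of these was called, and 52% of all tested genes had a difference above 0. The B cell level was highest in Het 31 (10.65), while that of Het 56 (8.45) lay below WT 54, 57 and 65 (9.52, 8.85 and 9.39). Of the endothelial and stromal genes, 8 of 10 had a difference below 0. Dcn among them was called (24.8 ± 20.5 in Het and 469.6 ± 166 in WT libraries, SD, n = 4 each, limma adjusted p = 0.00536, and 0.0512 without Het 31 and Het 139 together). The mean log2 level of the myeloid list was 6.46 to 7.87 in Het and 6.38 to 7.51 in WT libraries, that of the CD4 and regulatory T cell list 7.54 to 8.47 in Het and 7.29 to 8.34 in WT libraries, and that of the endothelial and stromal list 4.88 to 5.86 in Het and 5.68 to 7.08 in WT libraries. The part of the chaperone level, the marker levels and the number of genes above 0 in the difference between genotypes was not tested. The endothelial genes of that list were uneven. Pecam1, which lymphocytes also express, was at 5440.9 to 6997.8 in Het and 5353.4 to 5652 in WT libraries, as high as some members, and Eng at 1113.5 to 1575.2 in Het and 1301.6 to 1776.6 in WT libraries, while Cdh5, Kdr, Tek, Emcn and Vwf were at 74.8 or less in Het and 50.8 or less in WT libraries.

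**Figure D5:**
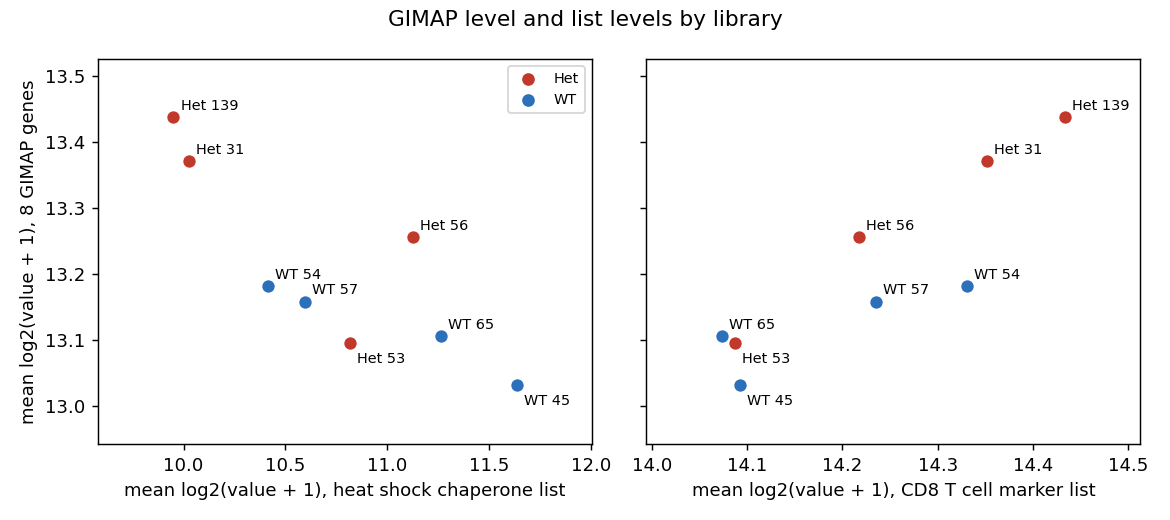
Mean log2(value + 1) of the 8 GIMAP genes (vertical) against that of the heat shock chaperone list (left) and the CD8 T cell marker list (right), with 1 labelled point per library (Het red, WT blue). The GIMAP level is highest in Het 139 (13.44) and lowest in WT 45 (13.03), where the chaperones are lowest and highest.

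The genes whose pattern was most like the family were Lyrm7, an assembly factor of respiratory complex III (r = 0.97), Ssu72, a phosphatase of RNA polymerase II (0.97), Tmem203, a membrane protein (0.97), Atp5h, a subunit of ATP synthase (0.97), and Cd82, a tetraspanin of lymphocytes (0.97), over 8 libraries and 8867 candidate genes. Cd82 was at 8951.2, 6584.5, 8093.3 and 9131.6 in Het 31, 53, 56 and 139, against 6149.3, 7794.8, 7133.7 and 7179.8 in WT 45, 54, 57 and 65. Like the family mean, it was highest in Het 139 and Het 31 and lowest in WT 45 and Het 53. None of the 5 passed the test (limma adjusted p from 0.477 to 0.660).

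Genes that act with the GIMAP proteins did not pass the test either. Of 12 partners and effectors, 7 had a difference above and 5 below 0, with a median of 0.05 and 0 called. Bcl2, the survival protein of mitochondria, was at 6651 ± 1295 in Het and 6379 ± 385 in WT libraries (SD, n = 4 each). Gabarapl2, the GABARAP protein that Gimap6 is known to bind, was at 79.8 ± 15.3 in Het and 69.3 ± 35.5 in WT libraries. The smallest p of the list was that of its relative Gabarapl1, at 150 ± 14.8 in Het and 210 ± 34.2 in WT libraries (log2 difference -0.47, SE 0.19, limma adjusted p = 0.538). Lamp1, a protein of the lysosomal membrane, was at 6166 ± 669 in Het and 5395 ± 766 in WT libraries (limma adjusted p = 0.667).

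In the interleukin 7 pathway, which keeps naive T cells alive, 9 of 18 genes had a difference above and 9 below 0, with a median of -0.01 and 0 called. Il7r, the receptor, was at 24712 ± 6208 in Het and 25820 ± 2394 in WT libraries, and Foxo1, the factor that maintains its expression, at 12202 ± 860 in Het and 10958 ± 791 in WT libraries (limma adjusted p = 0.881 and 0.662). Of 16 genes of the naive and quiescent state, 8 were above and 8 below 0 (median 0.01, 0 called), with the antiproliferative gene Tob1 at 1644 ± 155 in Het and 1850 ± 62.1 in WT libraries (limma adjusted p = 0.653). Another family of immune GTPases, the interferon-inducible ones, had 14 of 14 tested genes above 0, against 52% of all tested genes, with a median of 0.17 and 0 called. Its smallest p was that of Igtp, at 8128 ± 508 in Het and 6808 ± 825 in WT libraries (log2 difference 0.26, SE 0.10, limma adjusted p = 0.542). The level of that list was 10.21 to 10.76 in Het and 10.01 to 10.45 in WT libraries, highest in Het 139.

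Promoter windows are shown for Gimap4 and Gimap7, the pair with the highest r over the 8 libraries (0.90), and for Gimap9, which varied apart. After the mean of each genotype was taken out, r was highest for Gimap1 with Gimap7 (0.96, against 0.91 for Gimap4 with Gimap7). Each window runs from 250 bases before to 50 after the start, 5′ to 3′ on the strand of the gene, from RefSeq on GRCm38.p6. Capitals mark matches, on either strand, to GGAAGT or AGGAAG (bound by ETS factors), TGTGGT (RUNX), TGTTTAC (FOXO), CTTTGA (TCF and LEF) and the interferon response element. The ETS motifs overlap each other and can form a single run.
Gimap4, chr6:48684328-48684627, plus strand: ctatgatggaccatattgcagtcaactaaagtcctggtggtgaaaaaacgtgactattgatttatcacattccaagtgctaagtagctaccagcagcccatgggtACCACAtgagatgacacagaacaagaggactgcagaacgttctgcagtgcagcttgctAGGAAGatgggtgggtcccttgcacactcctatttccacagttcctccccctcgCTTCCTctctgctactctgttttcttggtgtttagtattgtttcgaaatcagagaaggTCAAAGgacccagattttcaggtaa
Gimap7, chr6:48718371-48718670, plus strand: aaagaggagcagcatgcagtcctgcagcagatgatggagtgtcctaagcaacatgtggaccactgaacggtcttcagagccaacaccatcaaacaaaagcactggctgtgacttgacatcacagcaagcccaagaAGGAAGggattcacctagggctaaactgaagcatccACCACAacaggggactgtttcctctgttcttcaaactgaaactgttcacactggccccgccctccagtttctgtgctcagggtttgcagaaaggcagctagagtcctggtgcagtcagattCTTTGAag
Gimap9, chr6:48675885-48676184, plus strand: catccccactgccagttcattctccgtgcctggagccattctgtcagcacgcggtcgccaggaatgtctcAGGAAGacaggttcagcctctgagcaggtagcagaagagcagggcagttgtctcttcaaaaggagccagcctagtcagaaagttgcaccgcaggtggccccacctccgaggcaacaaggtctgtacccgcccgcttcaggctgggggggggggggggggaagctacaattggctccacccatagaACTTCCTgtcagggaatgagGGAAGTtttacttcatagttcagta

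AGGAAG was found in 7 of the 9 windows of the 8 members, all but that of Gimap6 and 1 of the 2 of Gimap8, and in 35.4% of 32851 mouse windows. GGAAGT was found in 4 of 9 windows (23.8% of all), TGTGGT in 3 of 9, those of Gimap1, Gimap4 and Gimap7 (16.8% of all), and CTTTGA in those of Gimap4 and Gimap7 (16% of all). TGTTTAC was found in that of Gimap3 alone (3.6% of all) and the interferon response element in 0 of 9 (3.4% of all). Such matches describe the letters of these windows, not binding. The 2 windows of Gimap8 overlap on the chromosome, so the 9 windows are not 9 separate stretches.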

How the data were processed

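RNA of naive CD8 T cells from mouse spleen was sequenced in 4 Brca1 Het and 4 Brca1 WT libraries, stranded and made from polyadenylated RNA per the labels' protocols. Per the labels and the table itself, the authors deposited a single linear signal for each gene and library, namely normalized read counts. The submitters' processing notes name CASAVA, TopHat2, HTSeq, DESeq and mm9, with neither role nor order. No source used here gives the normalization step or the strand setting. At each of the 9513 ranks with a mean of 100 or more, the 8 libraries stayed within 2% of that rank's mean, so they share 1 distribution and differences in total RNA are hidden. No count model was used, since the values are not counts, and the depth in reads is unknown.

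Genotypes were compared with limma 3.58.1 (R 4.3.3), 2-sided and with a variance trend, on log2(value + 1) of the 12048 genes whose mean reached 10, and p-values were adjusted over all of them (Benjamini-Hochberg, threshold 0.05). Exact 2-sided permutation tests used the 70 possible assignments of libraries to genotypes, which cannot give a p below 0.0286. The fit was tested on simulated data. The members, the 13 gene lists (155 genes, 154 found) and the tests were chosen with earlier results of these data known. Eligible to be named from each list were its called genes (up to 4) or otherwise up to 2 with the smallest p. Further eligible were the measured neighbours of the locus, Brca1, Cd8a, Cd8b1 and Cd3e. The last were the 5 genes with a mean of at least 100 and the highest Pearson's r with the mean log2 level of the members (unnamed gene models and antigen receptor segments left out). Bcl2, Gabarapl2, Il7r, Krba1 and the endothelial genes fall outside this rule and were chosen after their values were seen. Exon lengths and transcripts came from GENCODE M21 (GRCm38), which may differ from the models used for counting, and all 8 members matched the RefSeq promoter windows by symbol. Alternatives were the pseudocount, the filter, the scaling, the variance model, weights, covariates and leaving out libraries.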

Additional observations from a re-analysis of the deposited data

Results flagged for a closer look

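A library stood far from the other 3 of its genotype, by a gap of nearly the whole range, in 6 of 72 groups screened, and chance gives about 1 in 20. Among the GIMAP genes these were Gimap3 in WT 45, at 27228.5 against 33254.2 to 34139.4 in the other WT libraries, and Gimap8 in WT 65, at 13250.7 against 11654.5 to 11894.6. That value of Gimap8 is the WT value nearest to the Het libraries. Among the other genes of the lists they were Cd40lg in WT 65 (157.9, others 27.2 to 34.6), Cd3g in WT 54 (18659.4, others 15715.2 to 16087.9), Igtp in Het 53 (7371.8, others 8322.8 to 8462.3) and Lyz2 in WT 54 (1133.4, others 578.2 to 664.3).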

How the results depend on the processing

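The count of GIMAP genes called by limma was 0 under each of the 19 other settings run, with 0 to 2 members at an unadjusted p under 0.05 and a lowest adjusted p of a member between 0.185 and 0.9997. The members' median ranged from 0.07, without Het 31 and Het 139 together, to 0.21 on the log2 scale. Over all genes 62 were called, against 123 without the filter on low values, 14 with a mean of at least 50, 40 with the B cell level and 20 with the chaperone level as a covariate, 7 without Het 31 and Het 139 together, and 11 (without WT 57) to 94 (without Het 56) when 1 library was left out, with 27 without Het 31, 21 without Het 53, 30 without Het 139, 16 without WT 54 and 17 without WT 65. The calls were all lower in Het except 9 higher without the filter, 10 without the variance trend, 3 without Het 56, and 1 each with array weights and without WT 65. Among other named genes, Atp6v0e2 was called without the filter or the trend, and Dcn was not called without Het 31 and Het 139 together (adjusted p = 0.0512). The sign turned for Gimap9 with median-of-ratios scaling (-0.011) and without Het 56 or WT 57 (range -0.045 to 0.040 over single libraries), and for Gimap1 (-0.042) and Pik3ca (0.0065) with the chaperone covariate. Without Het 31 and Het 139 together, the libraries with the highest family level, the sign turned for Gimap1 (-0.14), Gimap6 (-0.0065), Cd74 (-0.0027), Cd3g (-0.023), Lyz2 (-0.12) and Pik3ca (0.052). The cause was not tested. With 1 library left out, the difference of Gimap7 ran from 0.26 to 0.53, that of Gimap1 from 0.02 to 0.29 and that of Gimap8 from 0.16 to 0.22. No paired analysis was possible because the labels give neither litter nor day, and the title numbers do not pair the genotypes.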
